A study of Mus musculus with 6 samples.

Results

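The splicing regulators examined here were 10 RNA-binding proteins outside the SR family, taken by gene symbol: *Tial1*, *Tia1*, *Ptbp1*, *Ptbp2*, *Ptbp3*, *Celf1*, *Mbnl1*, *Mbnl2*, *Elavl1* and *Khdrbs1*. Each symbol was found once among the 54532 genes of the expression table. RNA-seq of total RNA was performed on STRA8+ germ cells of mouse testis, in 3 libraries labelled Control with the genotype Cre and 3 libraries labelled cKO with the genotype *Srsf1* knockout, made by conditional knockout. The strain, the age of the animals, the promoter driving Cre and the state of the *Srsf1* alleles in the controls are not given in the sources used here. Nor do the labels say that the libraries of a group came from separate animals, so the p-values below measure only the spread among these libraries, which may be technical. The comparison of cKO with control addresses how the RNA of other splicing regulators stands in germ cells from which the SR protein SRSF1 is deleted.

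SR proteins such as SRSF1 bind enhancer sequences in exons and promote their inclusion. The regulators followed here recognise other sequences and act beside SR proteins or against them, often from the introns that flank an exon. Many regulate their own transcripts and those of their paralogs through exons whose inclusion or skipping shifts the reading frame and sends the RNA to nonsense-mediated decay, and *Ptbp2* and *Khdrbs1* are known for roles in male germ cells.

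Expression was given in FPKM (the fragments counted on a gene, divided by the length of its exons and by the size of the library). The length is that of all annotated exons joined, retained introns included, so the level of a gene with many such transcripts is lowered relative to other genes, while the comparison of groups within a gene or a ratio of 2 genes is not affected. Between 14447887 and 17310353 fragments per library were recovered from the deposited values. *Srsf1* itself was at 84.7, 45.2 and 51.9 FPKM in control replicates 1, 2 and 3 and at 5.08, 4.94 and 5.17 FPKM in cKO replicates 1, 2 and 3. *Stra8* was at 222 to 262 FPKM in the control and 242 to 313 FPKM in the cKO libraries, so the labelled cell type carried its defining transcript in all 6 libraries. The RNA of late germ cell markers differed between the groups. The summed FPKM of 10 spermatid markers was 2480 to 8296 in control and 6.43 to 9.14 in cKO libraries, and that of 10 pachytene markers was 1081 to 1290 in control and 224 to 253 in cKO libraries. All 10 spermatid markers and 9 of the 10 pachytene markers fell in the limma test described below. By contrast, 2 of 10 markers of early meiotic prophase (*Spo11* and *Rec8*) and 1 of 10 of differentiating spermatogonia (*Dmrtb1*) fell, with none higher, where 22.2% of all genes tested fell and 11.8% rose. Among 10 markers of undifferentiated spermatogonia, of which 8 were tested, 2 rose (*Ret* and *Utf1*) and 1 fell (*Id4*). Of 28 somatic markers 15 were tested and 1 rose (*Rhox5*), and their summed FPKM was 112 to 126 in control and 92.2 to 178 in cKO libraries. Control replicate 2 stood apart from the other controls, with the highest spermatid sum (8296 FPKM) and correlations of 0.952 and 0.956 with control replicates 1 and 3, which correlated at 0.976 with each other (Pearson's r of log2(FPKM + 1) across genes, which are not independent replicates). Among the cKO libraries, replicate 1 had the highest somatic sum (178 FPKM, against 92.2 and 118.5 FPKM in cKO replicates 2 and 3).

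Differences were tested with limma on log2(FPKM + 1) for the 15451 genes that averaged 1 FPKM or more over the 6 libraries, with Benjamini-Hochberg adjustment over all of them and a threshold of 0.05. Of the 10 regulators 9 were tested, and *Mbnl1* was below the filter. *Mbnl2* passed the filter only through the cKO libraries (1.22 to 1.46 FPKM, against 0.844 to 0.936 FPKM in control). Its counts as higher below therefore depend on the filter. None of the 9 rose and 1, *Ptbp2*, fell, where 11.8% of all genes tested rose and 22.2% fell (1821 and 3437 genes, against 5164 and 2527 with quantile normalization). At an unadjusted p under 0.05 there was 1 higher (*Mbnl2*) and 1 lower (*Ptbp2*), against 18.3% and 26.5% of all genes tested. Limma-voom on the recovered fragments called 2 higher (*Celf1* and *Mbnl2*) and 1 lower (*Ptbp2*), against 16.2% and 21.5% of all genes. The 3 cKO libraries were above the 3 control libraries for 2 of the 9 (*Celf1* and *Mbnl2*) and below them for 1 (*Ptbp2*), where 21.8% and 28.6% of all genes tested had such a pattern. The median log2 fold change was 0.01 over the 9 regulators and -0.0082 over all genes tested. Unless limma-voom, another pseudocount or a log2 ratio is named, each log2 fold change is cKO minus control on the log2(FPKM + 1) scale, which makes the changes of weakly expressed genes look smaller. In bulk RNA of this kind, fewer cells of a type and less RNA per cell cannot be told apart.

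**Figure D1:**
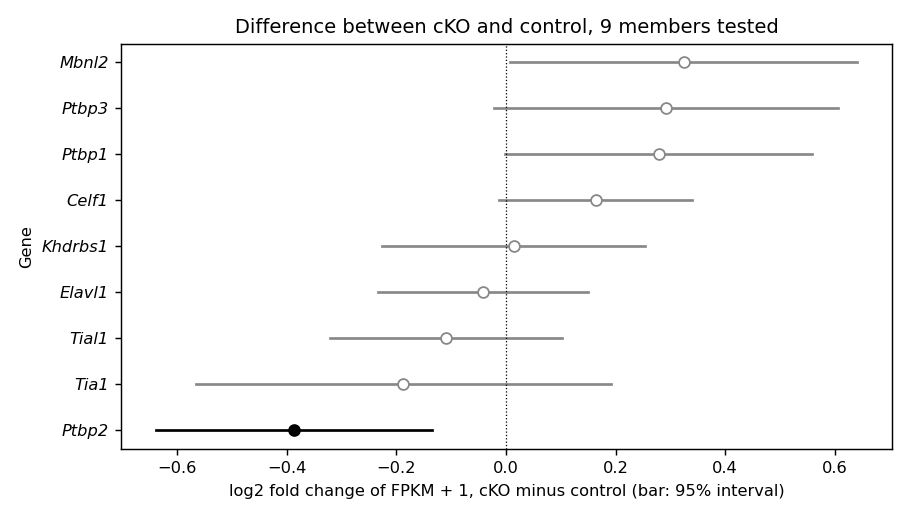
Log2 fold change of log2(FPKM + 1), cKO minus control, for the 9 regulators tested, with 95% intervals from limma as bars; the filled point passed the adjusted threshold. *Ptbp2* lies lowest, at -0.39, and *Mbnl2* highest, at 0.32.

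In both groups the same order of levels per length was found, from *Ptbp1* through *Celf1*, *Khdrbs1*, *Ptbp2*, *Tial1*, *Elavl1*, *Ptbp3*, *Tia1* and *Mbnl2* to *Mbnl1*. The control means ran from 46.8 FPKM for *Ptbp1* to 0.607 FPKM for *Mbnl1*, and no neighbours in the order had overlapping ranges. In the cKO libraries the means ran from 57.3 to 0.803 FPKM. There, *Ptbp2* could no longer be separated from *Tial1*, nor *Elavl1* from *Ptbp3*, since their ranges overlapped. Every regulator except *Tia1*, *Mbnl1* and *Mbnl2* was above 10 FPKM in all 6 libraries.

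**Figure D2:**
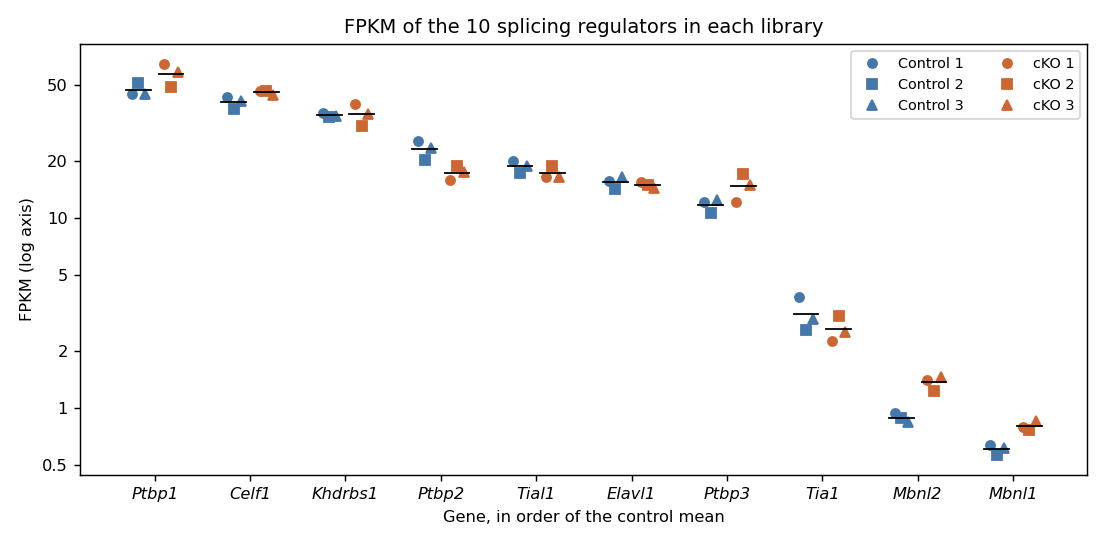
FPKM (log axis) of the 10 regulators in each library, ordered by control mean; points are libraries and lines are the group means. The 3 cKO points of *Ptbp2* lie below the 3 control points, and those of *Celf1*, *Mbnl1* and *Mbnl2* lie above them.

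*Tial1* and *Tia1* encode TIAR and TIA-1, which bind U-rich sequences downstream of weak 5′ splice sites, help the U1 snRNP to recognise them, and also act in translation and stress granules. *Tial1* (ENSMUSG00000030846, chr7:128439777-128461717 of GRCm38, minus strand) was at 19.98, 17.2 and 18.7 FPKM in control replicates 1, 2 and 3 and at 16.4, 18.7 and 16.5 FPKM in cKO replicates 1, 2 and 3. The groups overlapped, since cKO replicate 2 was above control replicates 2 and 3. The means were 18.6 ± 1.38 and 17.2 ± 1.32 FPKM (SD, n = 3 each), and the log2 fold change was -0.11 (SE 0.089, 95% interval -0.32 to 0.10, limma Benjamini-Hochberg adjusted p = 0.379). A difference in *Tial1* RNA was therefore not detected, and the interval leaves room for a fall by 0.32 or a rise by 0.10 on the log2 scale.

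*Tia1*, the paralog, was lower per length, at 3.85, 2.56 and 2.94 FPKM in control replicates 1, 2 and 3 and at 2.24, 3.06 and 2.51 FPKM in cKO replicates 1, 2 and 3. Here too the groups overlapped, with control replicate 1 the highest and cKO replicate 1 the lowest. Its log2 fold change was -0.19 (SE 0.16, 95% interval -0.57 to 0.19, limma Benjamini-Hochberg adjusted p = 0.403). When single libraries were left out the value ran from -0.29 (without control replicate 2) to -0.063 (without control replicate 1), and that of *Tial1* from -0.17 (without cKO replicate 2) to -0.060 (without control replicate 1). The estimates of both genes changed sign under quantile normalization, to 0.03 for *Tial1* and 0.14 for *Tia1*, under which the median of all genes shifted to 0.21, and relative to that median they were at -0.19 and -0.072. *Tia1* varied most among the 10 regulators in the control group, with a coefficient of variation of 21.3%, against 7.42% for *Tial1* and a counting error of at most 4.25% for *Tia1*. The joined exons of *Tia1* span 15750 bases, with 14 of its 28 transcripts annotated with a retained intron, against 6903 bases and 4 of 14 for *Tial1*, which bears on the size of their shares but not on the comparison of groups. *Tial1* made up 83.8% to 87.0% of the summed FPKM of the pair in the control and 85.9% to 88.0% in the cKO libraries, with overlap. The ratio of *Tial1* to *Tia1* was 5.18, 6.72 and 6.35 in control replicates and 7.32, 6.11 and 6.55 in cKO replicates 1, 2 and 3. The difference of the log2 ratios was 0.14 (two-sided exact permutation test, p = 0.5, n = 3 each), and with 3 libraries against 3 such a test cannot go below 0.1. It was 0.025 without control replicate 1 and 0.21 without control replicate 2.

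The polypyrimidine tract binding proteins repress exons by binding CU-rich tracts in the introns around them. *Ptbp1* is expressed in most tissues, *Ptbp2* in neurons and in male germ cells, and *Ptbp3* was first known from blood cells. PTBP1 is known to repress an exon of *Ptbp2*, and a homologous exon of its own transcript, whose skipping leads to decay of the RNA. These exons were read from the annotation of GRCm38 (GENCODE M21) and are shown because they are the known link between the paralogs. Each is 34 bases long, so that skipping shifts the reading frame. Capitals mark the 26 bases (76.5%) that are identical in both, and the sequences read 5′ to 3′ along the gene. The *Ptbp2* exon lies at chr3:119724612-119724645 on the minus strand and the *Ptbp1* exon at chr10:79862014-79862047 on the plus strand.
Ptbp2: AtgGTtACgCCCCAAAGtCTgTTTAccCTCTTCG
Ptbp1: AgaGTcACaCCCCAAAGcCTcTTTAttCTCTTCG
Among the annotated transcripts of each gene that share the exons on both sides, 3 coding ones hold the exon, and those that skip it are 2 annotated for nonsense-mediated decay and 0 coding ones. The FPKM are totals per gene and do not resolve inclusion of these exons.

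*Ptbp2* (ENSMUSG00000028134, chr3:119718742-119784466, minus strand) was at 25.3, 20.1 and 23.4 FPKM in control replicates 1, 2 and 3 and at 15.8, 18.6 and 17.3 FPKM in cKO replicates 1, 2 and 3. All cKO libraries were below all control libraries, and the gap was narrowest between control replicate 2 and cKO replicate 2. The mean was 22.9 ± 2.62 FPKM in the control and 17.2 ± 1.42 FPKM in the cKO group (SD, n = 3 each), or 75.3% of control. *Ptbp2* fell by 0.39 on the log2 scale (SE 0.11, 95% interval -0.64 to -0.14, limma Benjamini-Hochberg adjusted p = 0.0299, lower in 3 of 3 cKO libraries). The adjusted p was 0.0132 without control replicate 2 and 0.0390 without cKO replicate 2, but 0.0927 without control replicate 1, 0.0902 without control replicate 3, 0.0910 without cKO replicate 1 and 0.0849 without cKO replicate 3, so the call rested on each of these 4 libraries. Across the settings that kept all libraries the adjusted p ranged from 0.0225 to 0.0955, and it was over the threshold with no filter (0.0536), with quantile normalization (0.0936) and with the replicate number as a block (0.0955). The log2 fold change stayed below 0 in every setting, between -0.25 and -0.47. The markers of pachytene cells and spermatids were lower in the same libraries as *Ptbp2*, and their part in the *Ptbp2* difference was not tested.

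*Ptbp1* (ENSMUSG00000006498, chr10:79854427-79864771, plus strand) had the highest level per length, at 44.5, 51.2 and 44.7 FPKM in control replicates 1, 2 and 3 and at 64.7, 48.5 and 58.7 FPKM in cKO replicates 1, 2 and 3. The order was broken only by cKO replicate 2, which was below control replicate 2. The means were 46.8 ± 3.79 and 57.3 ± 8.20 FPKM (SD, n = 3 each), and the log2 fold change of 0.28 did not pass (SE 0.12, 95% interval -0.0014 to 0.56, limma Benjamini-Hochberg adjusted p = 0.113). Without cKO replicate 2 the value was 0.39 and passed (adjusted p = 0.0293), while the adjusted p of the other settings that left out a library reached 0.281. It also passed with quantile normalization (0.38, adjusted p = 0.0404), where it was 0.16 above the shifted median of all genes, in a range of 0.0404 to 0.212 over the settings with all libraries. Of the exon bases of *Ptbp1*, 20.7% overlap genes annotated on the opposite strand, among them *Plppr3*, and whether counting used strand is not given in the sources used here, so reads of these genes cannot be told apart from those of *Ptbp1* there.

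*Ptbp3* (chr4:59471868-59549364, minus strand) was at 12.1, 10.5 and 12.4 FPKM in control replicates 1, 2 and 3 and at 12.1, 17.05 and 14.8 FPKM in cKO replicates 1, 2 and 3. cKO replicate 1 lay within the control range and the others above it. The log2 fold change was 0.29 (SE 0.13, 95% interval -0.02 to 0.61, limma Benjamini-Hochberg adjusted p = 0.134). It was 0.41 and passed (adjusted p = 0.0457) without cKO replicate 1, and the adjusted p reached 0.314 when another library was left out. With quantile normalization it was 0.47 (adjusted p = 0.0277), or 0.25 above the shifted median, in a range of 0.0277 to 0.223 over the settings with all libraries.

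The genes were next compared as shares of the family. *Ptbp2* made up 30.8%, 24.5% and 29.0% of the summed FPKM of the 3 genes in control replicates 1, 2 and 3 and 17.1%, 22.1% and 19.1% in cKO replicates 1, 2 and 3. The groups did not overlap, with means of 28.1% ± 3.24 and 19.4% ± 2.56 (SD, n = 3 each). The shares of *Ptbp1* (54.4% to 62.6% in control, 57.6% to 69.9% in cKO) and *Ptbp3* (12.9% to 15.4% in control, 13.1% to 20.3% in cKO) overlapped. The sum of the family was 81.4 ± 0.805 FPKM in the control and 89.2 ± 4.46 FPKM in the cKO libraries (SD, n = 3 each). A sum or share of FPKM depends on the gene lengths, so both were also taken without division by length, an alternative added after the data were seen. The summed fragments, scaled like the FPKM, then overlapped between the groups (506 to 534 in control, 528 to 548 in cKO), while the share of *Ptbp2* did not (36.4% to 43.4% in control, 26.7% to 32.4% in cKO). The ratio of *Ptbp2* to *Ptbp1* was 0.567, 0.392 and 0.523 in control replicates 1, 2 and 3 and 0.244, 0.385 and 0.295 in cKO replicates 1, 2 and 3. All cKO ratios were below all control ratios, although control replicate 2 and cKO replicate 2 nearly met. The difference of the log2 ratios was -0.69 (two-sided exact permutation test, p = 0.1, the smallest that 3 against 3 allows, and 0.2 after Benjamini-Hochberg adjustment over the 4 ratios compared). The ratio of *Ptbp3* to *Ptbp1* differed by 0.03 on the log2 scale, with overlap (exact permutation test, p = 1). When single libraries were left out this difference ran from -0.20 to 0.25, so it had no stable direction.

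**Figure D3:**
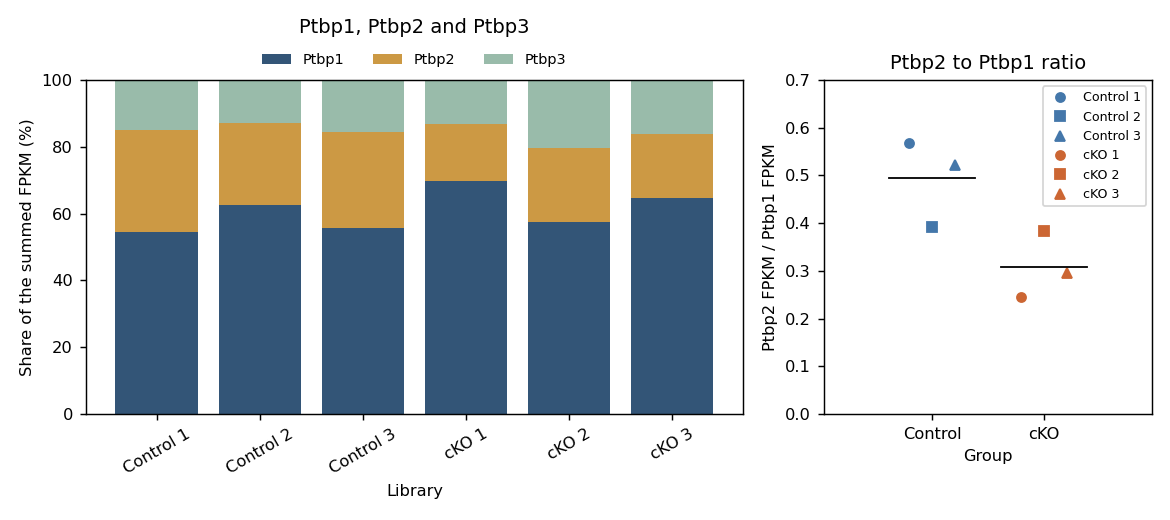
Left, the share (%) of *Ptbp1*, *Ptbp2* and *Ptbp3* in their summed FPKM in each library; right, the ratio of *Ptbp2* to *Ptbp1* FPKM, with points for libraries and lines for the arithmetic group means. *Ptbp2* takes 24.5% to 30.8% in control and 17.1% to 22.1% in cKO libraries, and the ratios of control replicate 2 (0.392) and cKO replicate 2 (0.385) lie next to each other.

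CELF1 and the muscleblind proteins MBNL1 and MBNL2 are best known from muscle, where they act on many of the same exons in opposite directions, with CELF1 binding GU-rich motifs. *Celf1* was at 43.3, 37.3 and 41.3 FPKM in control replicates 1, 2 and 3 and at 46.2, 46.2 and 44.3 FPKM in cKO replicates 1, 2 and 3. All cKO libraries were above all controls. The means were 40.6 ± 3.02 and 45.6 ± 1.10 FPKM (SD, n = 3 each), and the log2 fold change of 0.16 did not pass (SE 0.074, 95% interval -0.01 to 0.34, limma Benjamini-Hochberg adjusted p = 0.135). It passed with limma-voom (0.22, adjusted p = 0.0476), with FPKM recomputed from the sum of fragments (0.21, adjusted p = 0.0492) and with quantile normalization (0.26, adjusted p = 0.0324, but 0.045 above the shifted median), in a range of 0.0324 to 0.259 over all settings with all libraries. When each of the 6 libraries was left out in turn it never passed (adjusted p 0.113 to 0.268), and was lowest, at 0.11, without control replicate 2.

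*Mbnl2* was low, at 0.936, 0.881 and 0.844 FPKM in control replicates 1, 2 and 3 and at 1.41, 1.22 and 1.46 FPKM in cKO replicates 1, 2 and 3, from 162 to 266 fragments per library. The gene passed the filter of 1 FPKM only through the cKO libraries, so the tests below depend on the group where it was higher. All cKO libraries were above all controls, and the mean went from 0.887 ± 0.0467 to 1.37 ± 0.124 FPKM (SD, n = 3 each), or 154% of control. With a pseudocount of 1 the log2 fold change was 0.32 (SE 0.13, 95% interval 0.0080 to 0.64, unadjusted p = 0.0458, limma Benjamini-Hochberg adjusted p = 0.104), which missed the threshold. With a pseudocount of 0.1 it was 0.57 and also missed (adjusted p = 0.0966), and with limma-voom it was 0.67 and passed (adjusted p = 0.00995). It also passed without the intensity trend (0.32, adjusted p = 0.0276) and with quantile normalization (0.93, adjusted p = 0.00285, 0.72 above the shifted median), and the adjusted p ranged from 0.00285 to 0.235 over the settings with all libraries. When each of the 6 libraries was left out in turn, *Mbnl2* never passed (limma adjusted p 0.108 to 0.249).

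*Mbnl1* was lower still, at 0.642, 0.565 and 0.615 FPKM in control replicates 1, 2 and 3 and at 0.792, 0.766 and 0.851 FPKM in cKO replicates 1, 2 and 3. All cKO libraries were above all controls, with means of 0.607 ± 0.0393 and 0.803 ± 0.0432 FPKM (SD, n = 3 each), or 132% of control. On the log2(FPKM + 1) scale the difference was 0.17 (two-sided exact permutation test, p = 0.1, the smallest possible). The ratio of *Mbnl2* to *Mbnl1* was 1.46, 1.56 and 1.37 in control replicates 1, 2 and 3 and 1.78, 1.60 and 1.72 in cKO replicates 1, 2 and 3. Again no cKO library was within the control range, and the log2 ratios differed by 0.21 (two-sided exact permutation test, p = 0.1, 0.2 after Benjamini-Hochberg adjustment over 4 ratios). *Celf1* took 96.3% to 96.6% of the summed FPKM of the 3 genes in control and 95.04% to 95.9% in cKO libraries, and 93.7% to 94.2% and 91.8% to 93.1% without division by length.

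Muscleblind proteins regulate a cassette exon in their own transcripts that is known to influence their localisation in the nucleus. It is shown for *Mbnl1* (chr3:60614683-60614736, plus strand) and *Mbnl2* (chr14:120395712-120395765, plus strand) of GRCm38 because both paralogs have it at the same length and with similar sequence. Unlike the 34-base exons above, it has 54 bases and keeps the reading frame. Capitals mark the 46 identical bases (85.2%).
Mbnl1: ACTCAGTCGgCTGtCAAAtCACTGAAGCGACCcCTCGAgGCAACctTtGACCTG
Mbnl2: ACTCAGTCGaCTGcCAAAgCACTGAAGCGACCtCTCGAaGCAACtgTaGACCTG
Among the annotated transcripts that share the exons on both sides, 4 coding ones of *Mbnl1* hold this exon and 4 skip it, and 3 and 3 of *Mbnl2*. No decay transcript is annotated for either gene.

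HuR, the product of *Elavl1*, binds AU-rich sequences in introns and in the 3′ ends of mRNAs, which it can stabilise. *Elavl1* was at 15.6, 14.2 and 16.3 FPKM in control replicates 1, 2 and 3 and at 15.5, 14.8 and 14.4 FPKM in cKO replicates 1, 2 and 3. All cKO libraries fell inside the control range, and the log2 fold change was -0.04 (SE 0.080, 95% interval -0.23 to 0.15, limma Benjamini-Hochberg adjusted p = 0.721), with a sign that changed under 3 other scalings. *Khdrbs1* encodes SAM68, a STAR protein that binds UAAA-like motifs, takes part in splicing downstream of signalling and is needed for male fertility. It was at 35.5, 34.1 and 34.2 FPKM in control replicates 1, 2 and 3 and at 39.7, 30.4 and 35.2 FPKM in cKO replicates 1, 2 and 3. The cKO libraries lay on both sides of the controls, with a coefficient of variation of 13.2% against 2.29%. The log2 fold change was 0.01 (SE 0.10, 95% interval -0.23 to 0.25, limma Benjamini-Hochberg adjusted p = 0.925).

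The annotation of the 10 regulators was compared with that of the protein-coding genes tested for transcripts that end in decay, a feature the choice of genes did not use. These genes include the regulators that were tested. The number of annotated transcripts per gene, on which the count depends, was not matched. At least 1 transcript annotated for nonsense-mediated decay was found in 6 of the 10 and in 27.9% of the 12294 protein-coding genes tested (3432 genes). *Tial1* has 4 of 14 transcripts of this kind, *Tia1* 4 of 28, *Ptbp1* 3 of 16, *Ptbp2* 2 of 13, *Ptbp3* 2 of 13 and *Khdrbs1* 1 of 4. *Celf1*, *Mbnl1*, *Mbnl2* and *Elavl1* have none. Of the 100-base windows of each gene's exons, 90.4% for *Ptbp1*, 98.5% for *Tia1* and 98.7% or more for the other 8 genes occur in no other annotated gene. The genes that share the remaining windows are not among the 10, so the paralogs could be told apart from each other by such stretches. This does not cover the 20.7% of *Ptbp1* exon bases that overlap genes on the opposite strand, where reads cannot be assigned without the strand.

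Related genes were followed for comparison. Of 11 paralogs of the 10 regulators 9 were tested, of which 1 rose and 2 fell (against 11.8% and 22.2% of all genes tested), and their median log2 fold change was 0.05. *Khdrbs3*, which encodes the SAM68 relative SLM2, fell by 0.90 on the log2 scale, from 9.92 ± 1.07 to 4.85 ± 0.311 FPKM (SD, n = 3 each, limma Benjamini-Hochberg adjusted p = 0.000828). *Celf3* fell by 1.24, from 2.07 ± 0.607 to 0.290 ± 0.0657 FPKM (SD, n = 3 each, adjusted p = 0.00227). It passed the filter on the mean FPKM only through the controls, since its cKO libraries were at 0.233 to 0.362 FPKM (20 to 29 fragments). *Khdrbs3* kept the call in every setting. *Celf3* kept it wherever it was tested, but it was not tested without control replicate 2 or with a minimum mean of 5 FPKM. *Celf3* was highest in control replicate 2 (2.77 FPKM, against 1.63 and 1.83 FPKM in control replicates 1 and 3), the library with the highest spermatid sum, and the part of the lower pachytene and spermatid RNA in the differences of these paralogs was not tested. *Elavl3*, a relative of HuR known from neurons, rose by 0.56, from 6.99 ± 1.23 to 10.8 ± 1.23 FPKM (SD, n = 3 each, adjusted p = 0.0213), a call lost without cKO replicate 1 or cKO replicate 3.

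Among 21 other regulators outside the SR family, 17 were tested, of which 5 rose and none fell (against 11.8% and 22.2% of all genes tested), and none was lower at an unadjusted p under 0.05 or under any other setting, limma-voom included. Their median log2 fold change was 0.10. *Nono*, a paraspeckle protein, rose by 0.55 on the log2 scale, from 18.5 ± 1.58 to 27.6 ± 0.671 FPKM (SD, n = 3 each, limma Benjamini-Hochberg adjusted p = 0.00209). *Khsrp*, encoding the KH-type splicing regulator KSRP, rose by 0.44, from 65.3 ± 3.998 to 89.2 ± 6.08 FPKM (SD, n = 3 each, adjusted p = 0.00555). *Puf60*, which acts with U2AF at 3′ splice sites, and *Taf15*, which encodes an RNA-binding protein found with the TFIID complex, both rose by 0.36 (adjusted p = 0.0114 and 0.00720). The fifth, *Fubp3*, rose by 0.34 (adjusted p = 0.0126, and 0.0519 without control replicate 3) and was past the number of genes the naming rule allowed. Whether the lower pachytene and spermatid RNA in the same libraries had a part in these rises was not tested.

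A list of 18 co-regulators and granule partners held the U1 and U2AF proteins, the PTB partner *Matr3* and proteins found with TIA-1 in stress granules, and 17 were tested. There 1 gene rose and 3 fell (against 11.8% and 22.2% of all genes tested), with a median log2 fold change of 0.03. *Ybx1*, which encodes an mRNA-packaging protein, fell by 0.74, from 260 ± 10.6 to 156 ± 13.1 FPKM (SD, n = 3 each, limma Benjamini-Hochberg adjusted p = 0.000623). The poly(A)-binding protein gene *Pabpc1* fell by 0.55 (adjusted p = 0.00833) and *Atxn2l* by 0.52 (adjusted p = 0.0189, lost without control replicate 1 or cKO replicate 3). *Ddx3x*, an RNA helicase gene, rose by 0.46 (adjusted p = 0.0155, lost without control replicate 1, cKO replicate 1 or cKO replicate 3). The part of the lower pachytene and spermatid RNA in these differences was not tested.

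**Figure D4:**
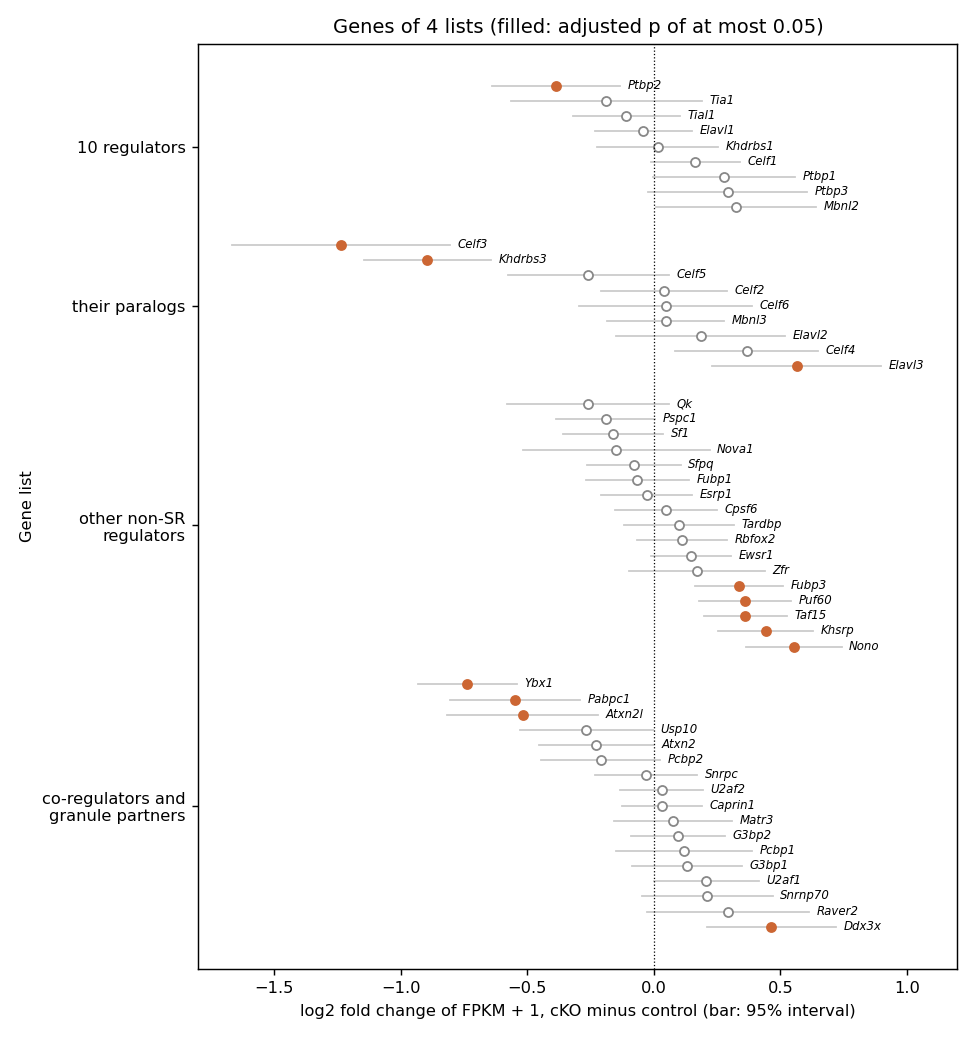
Log2 fold change of log2(FPKM + 1), cKO minus control, for the genes tested in the 4 lists (9 regulators, 9 paralogs, 17 other regulators, 17 co-regulators and granule partners), with 95% intervals from limma; filled points passed the adjusted threshold. All 5 filled points among the other regulators lie above 0, and 3 of the 4 among the co-regulators lie below 0.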

How the data were processed

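RNA-seq of 3 Control and 3 cKO libraries was grouped by the genotype and replicate labels. The authors deposited FPKM per gene with gene lengths. The submitters' processing notes name HISAT2 2.0.5 and mm10, and the counting tool is not given in the sources used here. FPKM times length fell on whole multiples of a step for 100% of values (tolerance 0.01 fragments), which gave the fragments per gene. From the FPKM, log2(FPKM + 1) was tested with limma 3.58.1 in R 4.3.3 (eBayes with trend, mean of at least 1 FPKM, Benjamini-Hochberg adjustment, threshold 0.05), checked on simulated data. Single ratios were compared by exact permutation tests. Gene coordinates and lengths of all 10 regulators equalled those of GENCODE M21 (GRCm38), which also gave the sequences. The regulators, gene lists and tests were chosen with earlier results of these data known, and 1 gene of a list is not reported here. All 10 were described, with *Srsf1*, and in other lists at most 4 called genes per direction by size, plus *Fubp3*, named after its values were seen. Stage markers were named by the same rule or as counts.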

Additional observations from a re-analysis of the deposited data

How the results depend on the processing

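Of 311 values recomputed under another setting, 250 kept their direction and side of the threshold, or stayed within 1.5 times for a count, and 61 did not. The 4 log2 ratios taken without division by length are left out of this count, since they cannot change. A log2 fold change likewise cannot change with another filter, without the trend or with the block. There, only its side of the threshold could move. Quantile normalization shifted the median of all genes to 0.21. It called 5164 genes higher, with 4 of the regulators higher and 0 lower, 4 paralogs, 7 other regulators and 6 co-regulators higher. Under it *Tial1* was at 0.029, *Tia1* at 0.14, *Ptbp1* at 0.38, *Ptbp2* at -0.25, *Ptbp3* at 0.47, *Celf1* at 0.26, *Mbnl2* at 0.93 and *Elavl1* at 0.11 (relative to the shifted median, *Tial1* was at -0.19, *Tia1* at -0.072, *Ptbp1* at 0.16, *Ptbp2* at -0.47, *Ptbp3* at 0.25, *Celf1* at 0.045, *Mbnl2* at 0.72 and *Elavl1* at -0.11).

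Libraries of the same replicate number showed no shared deviation (correlations of deviations -0.0014, -0.11 and 0.016 for numbers 1, 2 and 3). Between different numbers the correlations ran from -0.155 (control replicate 1 with cKO replicate 3) to 0.135 (control replicate 1 with cKO replicate 2). Such correlations cannot show whether libraries were handled in pairs. With the replicate number as a block 891 genes were higher, 0 regulators were lower (*Ptbp2* -0.39) and 3 other regulators were higher, without *Puf60* (adjusted p = 0.0581) and *Fubp3* (0.0654). With no filter 0 regulators were lower (*Ptbp2* -0.39). A minimum mean of 5 FPKM called 1950 genes and 1 paralog lower. FPKM from the sum of fragments called 1 regulator higher (*Celf1*, 0.21) and placed *Elavl1* at 0.0038. Limma-voom called 2 higher (*Celf1* 0.22, *Mbnl2* 0.67) and placed *Elavl1* at 0.0035. Without the trend 1 was higher (*Mbnl2*, 0.32). Each of these 3, a pseudocount of 0.1 and median-of-ratios scaling called 2 paralogs higher.

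Leaving out each library in turn gave 965 to 1752 genes higher and 2763 to 3202 lower, 0 to 1 regulators higher and 0 to 1 lower, 0 to 1 paralogs higher and 1 to 2 lower, 4 to 5 other regulators higher, and 0 to 1 co-regulators higher. The log2 fold change then ran from 0.19 to 0.39 for *Ptbp1*, -0.47 to -0.32 for *Ptbp2*, 0.18 to 0.41 for *Ptbp3*, -0.10 to 0.0013 for *Elavl1* and -0.076 to 0.11 for *Khdrbs1*, and the log2 ratio of *Ptbp3* to *Ptbp1* from -0.20 to 0.25. The cause of these changes was not tested, except that fewer genes were tested with the higher minimum and more with none. FPKM from the sum of fragments and limma-voom also used another library size. The size behind the deposited FPKM was 0.971 to 0.999 times the recovered sum in control and 0.993 to 1.05 times in cKO libraries. *Mbnl1* and *Mbnl2* rested on 162 to 266 fragments per library.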
